A study of Mus musculus with 4 samples.

Results

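MMH-D3 is a line of mouse hepatocytes described by the submitters as differentiated, and 2 of the 4 arrays of the study were hybridised with its RNA. Here the second MMH-D3 array is set against the first, gene by gene, because the labels give both the same line, culture protocol and array type. Of 18194 genes with a named probe set, 12598 passed a filter on low signal and are described. By the title of the protocol that the labels cite, such lines come from livers that express a truncated form of Met, the receptor of hepatocyte growth factor. The other 2 arrays hold RLSC lines, which are liver cells that grow as palmate colonies: MetE14/3, from a cyto-Met transgenic embryo of 14 days post coitum, and WTE14/1, from a wild-type one (its source name reads WT E14/3). The shared growth text describes liver cells of 14-day foetuses and 6-day newborns on collagen I in RPMI-1640 with 10% foetal bovine serum, EGF at 50 ng/ml, IGF-II at 30 ng/ml and insulin at 10 µg/ml, and gives DMEM with 10% serum for the RLSC lines. Each array is 1 sample. No label states if 1 culture or separate ones gave the MMH-D3 RNA, and the labels give no cell density, passage or day of harvest for either.

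With 1 array on each side there is no replicate check and no p-value, and every difference below is a difference between 2 arrays. A signal is the brightness of a probe set as deposited. A difference is array 2 minus array 1 of log2(signal + 4) after quantile normalization over the 4 arrays, so a positive value is a higher signal on array 2, and 2 units are 4-fold; the added 4 makes the difference understate the fold of dim genes. Genes at least 4-fold apart numbered 751 (5.96% of 12598): 371 were higher on array 2 (2.94%) and 380 were lower (3.02%). These last 2 shares are the ones to set beside each count of 4-fold genes in a list below. The median difference over all genes was 0.00, its SD was 1.01, and 3308 genes (26.3%) were at least 2-fold apart and 151 (1.2%) at least 8-fold. Array 2 was the lowest of the 4 arrays for 31.8% of genes and the highest for 29.6%, against 21.6% and 22.3% for array 1. By the same count, 829 genes were at least 4-fold apart between MMH-D3 array 1 and MetE14/3, and 1547 between MMH-D3 array 2 and MetE14/3.

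The labels name no batch, but the control probe sets split the arrays. The 24 poly-A control probe sets, which detect bacterial transcripts added to the RNA before labelling, read 10.8 times higher on array 1 than on array 2 (median; 4.80 to 25.3), and 10.9 times higher for MetE14/3 than for WTE14/1. The 18 hybridization controls showed no split of this size. Their median ratio was 0.956 for array 1 over array 2 (0.815 to 1.35). For MetE14/3 over WTE14/1 it was 0.758 (0.648 to 0.908). The ratio of the 3′ to the 5′ probe set of actin was 1.13 on array 1 and 1.24 on array 2, and that of Gapdh 0.809 and 0.787. Values of array 1 and MetE14/3 were deposited with 1 decimal and those of the other two with up to 7, which is the same split. The RLSC pair, taken as WTE14/1 minus MetE14/3, has the same control split but shares no array with the MMH-D3 pair, and its values stand beside each group below. Of the 751 genes, 77 were also at least 4-fold apart in the RLSC pair (10.3% of the MMH-D3 genes and 11.9% of the 646 RLSC genes, which were 5.13% of all), 36 in the same direction and 41 in the opposite one. Across the 12598 genes Pearson's r between the pairs was 0.07 and Spearman's rho 0.14, given as a description over genes, which are not independent. Apart from these values, the part of array handling in the differences was not tested.

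**Figure D1:**
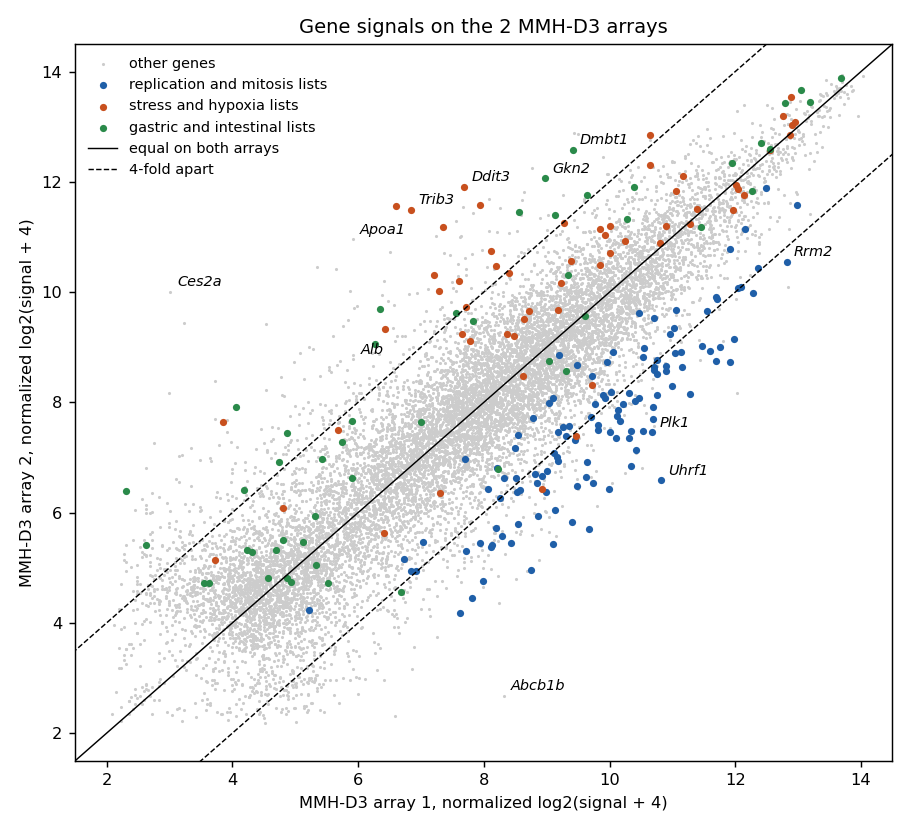
Normalized log2(signal + 4) of 12598 genes on MMH-D3 array 1 (horizontal) and array 2 (vertical); the solid line marks equal values and the dashed lines a 4-fold difference. Replication and mitosis genes (blue) lie below the solid line in every case, and stress, hypoxia, gastric and intestinal genes (orange and green) lie mostly above it.

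Several of the groups that differ are known targets of shared factors. A cell entering division copies its DNA with genes driven by E2F factors. It then segregates the copies with genes that the DREAM and B-MYB complexes control through the CHR element. Amino acid shortage and misfolded protein switch on ATF4 and its targets through a C/EBP-ATF element. Low oxygen switches on HIF targets through the core ACGTG. Hepatocytes rarely divide in the adult liver and are known for secreting most plasma proteins and for making cholesterol and bile acids. Windows from 250 bases before to 50 bases after every RefSeq start of each gene (build GRCm38.p6) were searched on both strands for 13 motifs. The shares below count genes, and a gene with several starts holds a motif if any of its windows does. The stretches below lie upstream of the most 5′ start and hold matches in genes that were at least 4-fold apart. Capitals mark the match, in either orientation. A match is a description of the letters and not evidence of binding.

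The E2F-type motif TTTNGCGC was present in 14 of 49 replication genes with a window (28.6%) and in 3 of 50 mitosis genes (6.00%). It was present in 2.81% of all 10186 measured genes that have a window. Orc1 encodes a subunit of the origin recognition complex (chr4:108579382-108579453, + strand), Mcm5 a subunit of the replicative helicase (chr8:75109315-75109412, + strand) and Rfc3 a subunit of the clamp loader (chr5:151651209-151651263, − strand).
Orc1: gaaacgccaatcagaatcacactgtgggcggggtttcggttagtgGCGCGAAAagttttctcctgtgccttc
Mcm5: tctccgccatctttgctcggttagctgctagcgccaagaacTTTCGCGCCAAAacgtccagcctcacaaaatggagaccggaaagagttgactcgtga
Rfc3: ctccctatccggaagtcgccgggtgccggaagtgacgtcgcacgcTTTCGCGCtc
Orc1 read 174 on array 1 and 15.2 on array 2, Mcm5 2703 and 288, and Rfc3 563 and 127.

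The CHR motif TTTGAA was present in 35 of 50 mitosis genes with a window (70.0%), in 9 of 49 replication genes (18.4%) and in 14.4% of all measured genes. Its matches share no base with a TTTNGCGC match in any of 13040 windows. Cdca5 encodes sororin, which holds sister chromatids together (chr19:6085043-6085096, + strand), Kif2c a kinesin that removes tubulin from microtubule ends (chr4:117178825-117178920, − strand) and Espl1 separase, which cuts cohesin at anaphase (chr15:102296221-102296292, + strand).
Cdca5: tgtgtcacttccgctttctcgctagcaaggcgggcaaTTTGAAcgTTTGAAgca
Kif2c: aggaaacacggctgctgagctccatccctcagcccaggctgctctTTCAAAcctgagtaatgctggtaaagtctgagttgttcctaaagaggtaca
Espl1: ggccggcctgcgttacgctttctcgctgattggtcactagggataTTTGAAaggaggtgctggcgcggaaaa
Cdca5 read 1368 on array 1 and 119 on array 2, Kif2c 715 and 89.5 (4 probe sets, from −3.0 to −0.26), and Espl1 289 and 46.2. Among the 306 genes at least 4-fold lower on array 2 that have a window, 5.88% held TTTNGCGC and 23.2% held TTTGAA.

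The C/EBP-ATF motif TGATGNAA was present in 7 of 28 genes with a window on the endoplasmic reticulum and amino acid stress list (25%). It was present in 2.73% of all measured genes. Nupr1 encodes a small stress-induced chromatin protein (chr7:126625528-126625625, − strand), Atf3 a stress-induced transcription factor (chr1:191183391-191183488, − strand) and Chac1 an enzyme that degrades glutathione (chr2:119351004-119351101, + strand).
Nupr1: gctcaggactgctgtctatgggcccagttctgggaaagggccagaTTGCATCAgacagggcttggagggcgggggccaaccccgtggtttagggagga
Atf3: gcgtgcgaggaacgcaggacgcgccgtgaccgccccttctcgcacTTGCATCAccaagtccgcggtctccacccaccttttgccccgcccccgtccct
Chac1: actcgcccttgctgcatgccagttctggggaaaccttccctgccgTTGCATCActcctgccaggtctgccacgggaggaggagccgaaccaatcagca
All 3 were higher on array 2, with signals given below.

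The HIF core ACGTG was present in 20 of 26 genes with a window on the glycolysis and hypoxia list (76.9%) and in 28.8% of all measured genes. Slc16a3 encodes a lactate exporter (chr11:120949008-120949066, + strand), Ddit4 an inhibitor of mTORC1 (chr10:59951908-59952002, − strand) and Ankrd37 a small ankyrin protein induced by low oxygen (chr8:45999851-45999901, − strand).
Slc16a3: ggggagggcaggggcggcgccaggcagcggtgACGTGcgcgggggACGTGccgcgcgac
Ddit4: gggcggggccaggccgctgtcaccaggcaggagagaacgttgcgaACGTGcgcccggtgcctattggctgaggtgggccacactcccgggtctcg
Ankrd37: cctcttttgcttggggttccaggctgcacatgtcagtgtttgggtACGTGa
Among genes at least 4-fold higher on array 2 that have a window, 24.1% held ACGTG and 5.42% held TGATGNAA. The first share lies below that of all measured genes.

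Genes of DNA replication were lower on array 2 throughout. All 60 measured members of the list (63 listed, 3 with no probe set named here) had a difference below 0, from −4.22 to −0.35, with a median of −2.32, and 40 were at least 4-fold lower where 3.02% of all genes were. Their summed signal was 77680 on array 1 and 16484 on array 2, beside 80986 in MetE14/3 and 64129 in WTE14/1. Array 2 was the lowest of the 4 arrays for 58 of the 60. The RLSC pair had a median of −0.31 for the same genes and no member 4-fold apart.

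Licensing of origins, the first step, includes the Mcm2 to Mcm7 helicase, and all 6 subunits were at least 4-fold lower, with differences from −3.13 to −2.22. Mcm5 lay lowest of them, and its RLSC signals were 3306 in MetE14/3 and 1672 in WTE14/1. Cdc6, which loads the helicase, read 825 on array 1, 50.9 on array 2, 704 in MetE14/3 and 529 in WTE14/1, a difference of −3.97. The low value is that of array 2, with the other 3 within 2-fold of each other. Uhrf1, which recruits the maintenance DNA methyltransferase to new DNA, had the lowest difference of the list: 1897 on array 1, 96.5 on array 2, 1958 in MetE14/3 and 1298 in WTE14/1 (−4.22, with both probe sets below 0).

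Rrm2, the S-phase subunit of ribonucleotide reductase, read 7518 on array 1, 1469 on array 2, 7280 in MetE14/3 and 5302 in WTE14/1, a difference of −2.26. Its other probe sets gave −3.10 and −2.96, so the brightest one is also the smallest of the 3 differences. Rrm1, the partner subunit, differed by −2.94 (3564 and 433) and Tk1, thymidine kinase, by −2.32 (2017 and 382). Pcna, the sliding clamp, is bright on every array: 8136 on array 1, 2993 on array 2, 7797 in MetE14/3 and 8102 in WTE14/1. Its difference of −1.39 is under 4-fold, although array 2 again stands alone below 3 close values. Exo1, a nuclease of mismatch repair, read 411 on array 1 and 28.7 on array 2 (−3.80, 3 of 3 probe sets). Rpa2 and Rpa3 are subunits of 1 single-strand binding complex; Rpa2 differed by −3.57 and Rpa3 by −0.35, the smallest difference of the list. Ccne2, the cyclin E that opens S phase, read 533 on array 1 and 41.4 on array 2 (−3.67), with 453 and 919 in the RLSC lines. Cdc45, a helicase cofactor at −2.0, lay just under the 4-fold mark with 1 of its 2 probe sets below 0.

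Genes of mitosis gave the same picture. All 60 measured members (62 listed) were below 0, from −3.49 to −0.60, with a median of −2.10; 33 were at least 4-fold lower and array 2 was the lowest of the 4 arrays for all 60. Their summed signal was 102085 on array 1, 27463 on array 2, 92203 in MetE14/3 and 89332 in WTE14/1, and the RLSC pair had a median of −0.01. The 10 kinases and cyclins of the list, among them Plk1, Cdk1 and Ccna2, ranged from −3.22 to −1.69, and 8 kinesins from −3.0 to −1.06.

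Cdca5 had the lowest mitotic difference (−3.49), and its RLSC signals were 1523 and 1252. Plk1, the polo kinase of mitotic entry, read 1722 on array 1, 178 on array 2, 1296 in MetE14/3 and 1032 in WTE14/1 (−3.22). Birc5, survivin of the chromosomal passenger complex, read 4149 on array 1 and 426 on array 2 (−3.19), with 3888 and 2697 in the RLSC lines, and Ttk, the spindle checkpoint kinase, 864 and 93.4 (−3.19). Mki67, the proliferation marker Ki-67, read 3044 on array 1, 518 on array 2, 2097 in MetE14/3 and 1420 in WTE14/1 (−2.45). By signal, array 1 was the highest of the 4 for Plk1, Birc5 and Mki67, and array 2 the lowest; after normalization MetE14/3 was the highest for Birc5. Shcbp1, a midbody protein, and Fbxo5, the inhibitor of the anaphase-promoting complex, stand in no list and were among the 12 lowest genes overall: Shcbp1 read 1550 and 115 (−3.70) and Fbxo5 911 and 69.3 (−3.68). Cks1b, a small Cdk-binding protein, was the least different at −0.60 (6009 and 3759).

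Both lists hold 120 measured genes, and array 2 was the lowest of the 4 arrays for 118 of them. Measured against the mean of the RLSC lines, their median was 0.02 on array 1 and −2.15 on array 2, so array 1 lay at the level of the RLSC lines and array 2 below it. Their 73 members at least 4-fold lower made up 19.2% of the 380 such genes. In RNA of a whole culture, fewer cells of one kind and less RNA per cell cannot be told apart, which holds for every group here.

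Genes that restrain the cycle were not shifted as a group. Of 32 measured cell cycle brakes and p53 targets, 3 were at least 4-fold higher and 1 lower, with a median of 0.19 and an RLSC median of −0.03. Gadd45a, which binds Cdk1 and responds to DNA damage and ATF4, read 72.5 on array 1, 1674 on array 2, 88.0 in MetE14/3 and 120 in WTE14/1 (4.22). Its relative Gadd45b lay the other way, at 668 and 127 (−2.46), with 3 probe sets that ranged from −2.46 to −0.25. Trp53inp1, a p53 target, read 180 on array 1 and 2930 on array 2 (3.88), but it also differed by 2.30 in the RLSC pair (374 and 1751), the same direction as the control split. Ccng2, a cyclin of resting cells, read 365 and 1657 (2.13). Cdkn1a, the p21 inhibitor, read 2930 and 4514 (0.76) and was bright on all arrays.

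The growth factor and Myc list (40 measured, median 0.29, 3 at least 4-fold higher and 1 lower) was likewise mixed. Ccnd1, the cyclin D1 that growth factors induce, read 5086 on array 1 and 4533 on array 2 (−0.09), Myc 1604 and 1918 (0.36) and Met 1116 and 1146 (0.11). By the probe set used, these 3 genes were near equal on both arrays while the S-phase genes were several-fold apart. The 3 probe sets of Ccnd1 ranged from −0.70 to −0.09, and the 3 D cyclins from −0.72 to 1.06. Egr1 read 165 on array 1 and 2457 on array 2 (3.74), with 159 in MetE14/3 and 1091 in WTE14/1, an RLSC difference of 2.80 in the direction of the control split. Fos, an immediate early gene like Egr1, read 752 and 4619 (2.64), with 71.2 and 115 in the RLSC lines. Erbb3, a partner of the EGF receptor, read 62.4 and 472 (2.54), and Etv4, an Ets factor downstream of Ras, 59.2 and 7.31 (−2.82).

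Ribosome biogenesis was lower by a smaller amount. Of 34 measured members 33 were below 0, the median was −0.84, and 1, Rrp12 (428 and 103, −2.13), was at least 4-fold lower. Array 2 was the lowest of 4 for 31 of them, and the RLSC median was 0.01. Npm1, nucleophosmin, was the single member above 0, at 0.04 (9287 and 9879).

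Cholesterol synthesis was higher on array 2. Of 19 measured enzymes 16 were above 0, with a median of 1.00, and array 2 was the highest of the 4 arrays for 15; 1 was at least 4-fold higher. Their summed signal was 23308 on array 1, 40925 on array 2, 16030 in MetE14/3 and 11056 in WTE14/1. The RLSC median was −0.44, opposite in sign. Hmgcs1, the synthase that makes HMG-CoA, read 2933 on array 1, 7362 on array 2, 1834 in MetE14/3 and 1195 in WTE14/1 (1.42), and its 5 probe sets ranged from 0.52 to 2.39. Cyp51, the lanosterol demethylase, read 818 on array 1 and 3429 on array 2 (2.09, 3 of 3 probe sets), with 550 and 401 in the RLSC lines. Both genes were highest on array 2 and next highest on array 1. Fdps, which makes farnesyl diphosphate, read 2903 and 6814 (1.33), and Sqle, squalene epoxidase, 1294 and 2408 (1.00). CCAAT stood in 16 of 16 enzymes with a promoter window (100%) and in 43.0% of all measured genes. Its share varied among other lists, with 72% for mitosis, 75% for endoplasmic reticulum and amino acid stress and 28.6% for ribosome biogenesis. The sterol-element form CACCCCAC stood in 1 of the 16 (6.25%) and in 3.90% of all measured genes. The 3 members below 0 were Lbr, a sterol reductase of the nuclear envelope (3173 and 1320, −1.13), Mvk (−0.42) and Ebp (−0.30).

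Genes that sense and move sterols did not share this shift. None of 19 measured members was 4-fold apart, and the median was 0.29. Srebf2, the factor that drives cholesterol synthesis, read 714 on array 1 and 1136 on array 2 (0.68), whereas Srebf1, which drives fatty acid synthesis, read 727 and 339 (−1.12). Insig1, an SREBP target that retains the sensor, read 424 and 1113 (1.34), and Scap, the sensor itself, 760 and 281 (−1.45). Scap differed by −1.25 in the RLSC pair too.

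Fatty acid genes were divided. Of 29 measured synthesis genes 2 were at least 4-fold higher and none lower (median 0.31), where 2.94% and 3.02% of all genes were. The 2 were Cidec, a lipid droplet protein, at 2.10 and 157 (4.51), and Acss2, cytosolic acetyl-CoA synthetase, at 35.7 and 249 (2.30, 2 of 3 probe sets). Fasn, fatty acid synthase, read 1901 on array 1 and 1096 on array 2 (−0.71), and Acaca, which makes malonyl-CoA, 332 and 167 (−1.11), while the desaturase Scd1 read 1029 and 3211 (1.72). Cidec passed the filter only through array 2. Of 23 measured oxidation genes 3 were at least 4-fold higher (median 0.36), of which Fgf21 and Fabp1 passed only through array 2 and had to be higher. These were Fgf21, the fasting hormone of liver (21.2 and 427, 3.76), Fabp1, the liver fatty acid binding protein (9.40 and 159, 3.31), and Acot2, a mitochondrial thioesterase (78.5 and 590, 2.59). Cpt1a, the entry enzyme of oxidation, read 1055 and 995 (−0.02).

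Stress genes around ATF4 were higher on array 2, and chaperones were divided. Of 30 measured members 7 were at least 4-fold higher and 2 lower, with a median of 0.94, and array 2 was the highest of 4 for 21. The RLSC median was −0.04. Split by role after the values were seen, the 7 factors and feedback genes around ATF4 (Atf4, Ddit3, Trib3, Chac1, Atf3, Ppp1r15a and Nupr1) ranged from 1.66 to 4.95, with a median of 3.83. The 5 serine and one-carbon enzymes had a median of 0.08, the 3 amino acid transporters one of 0.11, and the 8 chaperones and folding factors of the endoplasmic reticulum one of −0.02. Of those 8, 4 were above 0 and 4 below, from −2.50 to 1.34.

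Ddit3, the stress factor CHOP, read 182 on array 1, 3825 on array 2, 188 in MetE14/3 and 380 in WTE14/1 (4.22). Trib3, a pseudokinase induced by CHOP, read 93.3 on array 1, 2803 on array 2, 114 in MetE14/3 and 131 in WTE14/1 (4.65). Nupr1 read 78.0 on array 1, 2938 on array 2, 196 in MetE14/3 and 157 in WTE14/1 (4.95). By signal, array 1 was the lowest of the 4 for all 3 genes, and array 2 stood several-fold above the other 3. The second probe set of Ddit3 differed by only 0.23, so its large value rests on 1 of 2 probe sets. Atf3 read 141 and 2288 (3.83), Ppp1r15a, which restarts translation, 134 and 1021 (2.72), and Chac1 170 and 1163 (2.60). Atf4, controlled largely at translation, read 1693 and 4965 (1.66), and Asns, asparagine synthetase, 2478 and 4296 (0.93). On the other side, Sdf2l1 read 471 and 85.8 (−2.50) and Pdia4, a disulfide isomerase, 706 and 170 (−2.08). Both also differed in the RLSC pair, by −2.07 and −2.37, in the direction of the control split. Hspa5, the chaperone BiP, read 7220 and 9795 (0.44). In the heat shock list 12 of 14 members were below 0 (median −0.47), and Hsph1, a cytosolic chaperone, was 4-fold lower (1121 and 221, −2.31).

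Hypoxia genes were higher on array 2 and glycolytic enzymes much less so. Of 27 measured members of the joint list 7 were at least 4-fold higher and none lower, with a median of 0.72 and an RLSC median of −0.06. Split by role after the values were seen, 17 genes of the wider response had a median of 1.42 and held all 7, and 10 glycolytic enzymes a median of 0.31. Vegfa, the angiogenic factor, read 125 on array 1, 1246 on array 2, 98.8 in MetE14/3 and 259 in WTE14/1 (3.10). Ndrg1 read 1696 on array 1, 7563 on array 2, 2818 in MetE14/3 and 306 in WTE14/1 (2.21, 5 of 5 probe sets). Array 2 was the highest for both, with the RLSC lines far apart from each other for Ndrg1. Slc16a3 read 8.30 and 202 (3.79; it passed the filter only through array 2), Ddit4 221 and 3000 (3.65), Ankrd37 67.9 and 639 (2.89), and Bnip3, a mitophagy receptor, 253 and 1683 (2.62). Ddit4 is also a target of ATF4, and its RLSC difference was 1.19. Ldha, lactate dehydrogenase, read 7943 and 8954 (0.13), and Slc2a1, the glucose carrier GLUT1, 2022 and 2291 (0.29).

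**Figure D2:**
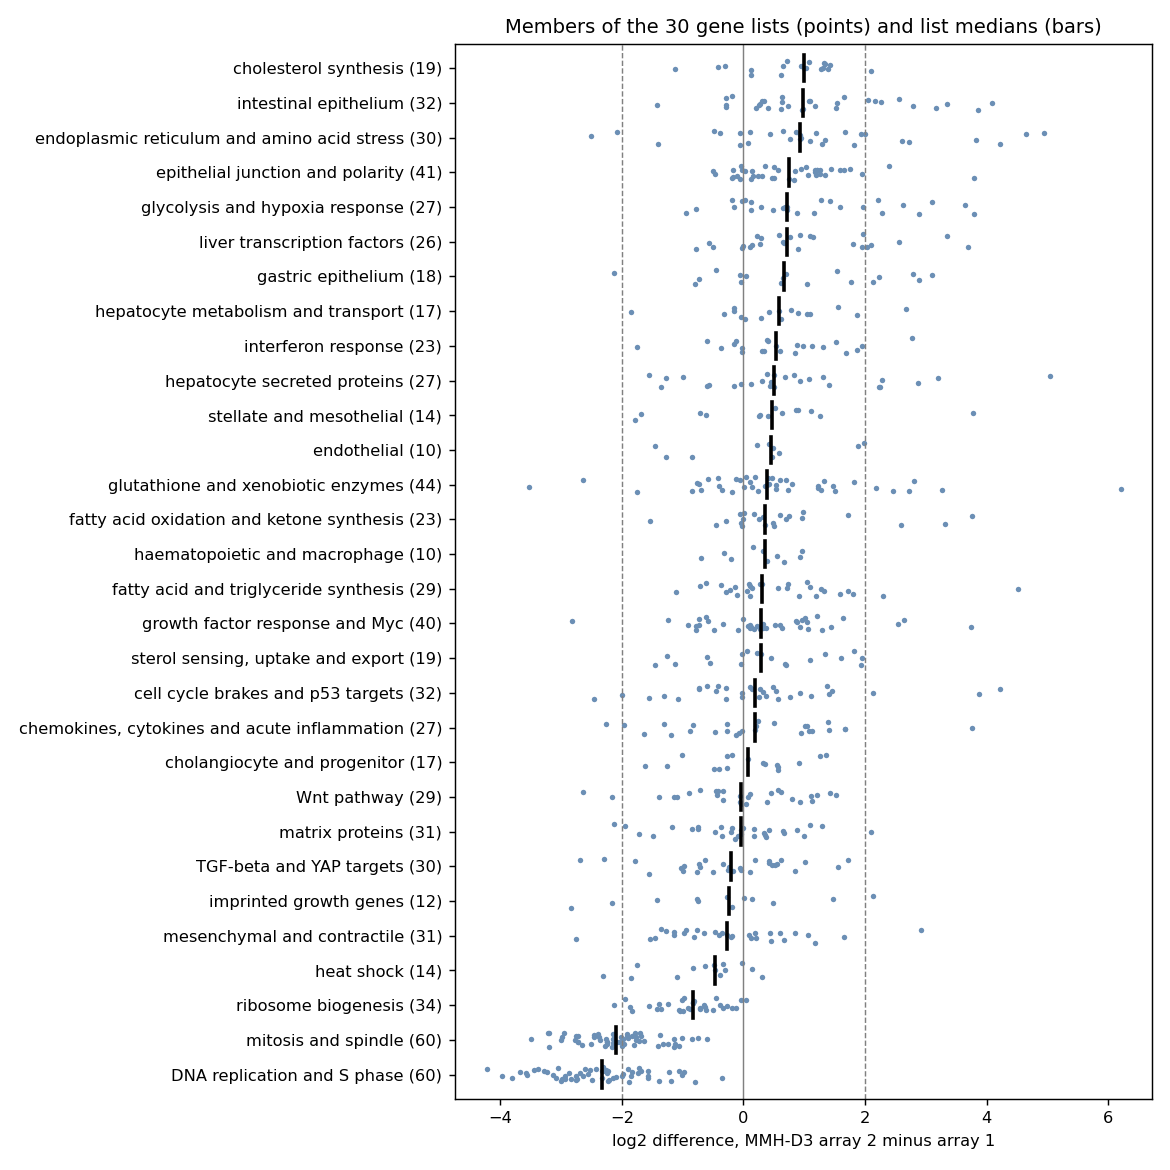
Difference between the MMH-D3 arrays (log2, array 2 minus array 1) for each measured member (points) of the 30 lists, with the number measured in brackets and the list median as a bar; dashed lines mark 4-fold. The replication and mitosis lists lie wholly below 0, with medians of −2.32 and −2.10, and the cholesterol list has the highest median, 1.00.

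Several secreted liver products were higher on array 2, and others were not. Of 81 secreted hepatocyte proteins listed, 27 passed the filter; 19 of these were above 0 and 8 below, 6 were at least 4-fold higher and none lower (median 0.50). For Alb, Apoa1, C9 and Ttr the mean over the other 3 arrays lay under the filter level, so each passed only with its signal on array 2. This favoured high values on array 2 without forcing array 2 above array 1, so the count carries no weight of its own. Over all genes, 91 of the 371 higher ones passed only with array 2, and 32 of the 380 lower ones only with array 1. Alb, albumin, read 44.7 on array 1, 440 on array 2, 1.70 in MetE14/3 and 2.91 in WTE14/1 (2.86). Apoa1, the main protein of HDL, read 44.6 on array 1, 1951 on array 2, 4.2 in MetE14/3 and 1.01 in WTE14/1 (5.04, 4 of 4 probe sets). Array 2 was the highest and array 1 the next for both. C9, the last complement component, read 76.2 and 865 (3.19), Ttr, transthyretin, 19.8 and 144 (2.25), and Cp, ceruloplasmin, 129 and 705 (2.22, 5 of 5 probe sets). Itih2, an inhibitor heavy chain, read 54.7 and 352 (2.27), but also 1.4 and 161 in the RLSC lines. Apob was high on both MMH-D3 arrays (2879 and 4647, 0.84) and low in the RLSC lines (77.4 and 13). Afp, the foetal albumin, ran the other way, at 1456 and 923 (−0.56), with 2 of its 4 probe sets below 0. The lowest members were Apoa2, an HDL protein (16.4 and 4.69, −1.55), and Hamp, the iron hormone hepcidin (20.5 and 8.38, −1.36).

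Against the label of a differentiated hepatocyte, several defining products failed the filter on the mean of the 4 arrays, with array 2 the higher. Ahsg read 1.30 on array 1 and 11.7 on array 2, Fgb 0.8 and 17, and Serpina1b 3.80 and 54.6. Enzymes of the adult liver read low as well: Cps1 of the urea cycle read 10.9 and 7.27, G6pc 0.400 and 2.79, and Cyp2e1 12.5 and 8.12. Of 45 metabolic genes listed, 17 passed the filter, and 1, the cysteine-forming enzyme Cth, was 4-fold higher (313 and 2123, 2.67). The median of those 17 was 0.59, and its sign was not kept under every alternative processing.

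Liver transcription factors had a median of 0.71 over 26 measured members, with 5 at least 4-fold higher and none lower. Over all genes 2.94% were higher by that much and 3.02% lower. Foxa3 and Nr1i2 among the 5 passed the filter only through array 2. Hnf4a, the central hepatocyte factor, read 1049 on array 1, 1687 on array 2, 205 in MetE14/3 and 6.76 in WTE14/1 (0.76, 4 of 4 probe sets). Onecut2, a hepatic and biliary factor, read 143 on array 1, 1647 on array 2, 281 in MetE14/3 and 15.7 in WTE14/1 (3.34). Hnf4a was highest on both MMH-D3 arrays, while Onecut2 on array 1 lay between the RLSC lines. Foxa3 read 1.5 and 75.9 (3.69), Rora, a nuclear receptor of lipid genes, 15.3 and 141 (2.55, 6 of 6 probe sets), Atf5, a liver-enriched stress factor, 396 and 1745 (2.09), and Nr1i2, the xenobiotic receptor PXR, 11.7 and 76.0 (2.02).

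Enzymes of detoxification differed both ways. Of 44 measured members 6 were at least 4-fold higher and 2 lower, against 2.94% and 3.02% of all genes. The median was 0.39. Sult1a1, a phenol sulfotransferase, read 4.10 on array 1, 690 on array 2, 19.6 in MetE14/3 and 1.54 in WTE14/1 (6.20), and passed the filter only through array 2. Sult1c2 read 282 and 2886 (3.27), Gsta3, a glutathione transferase, 364 and 2628 (2.80), Gstt1 11.4 and 125 (2.73) and Aldh1a7 459 and 2550 (2.46). Aldh1a7 also differed by 2.10 in the RLSC pair (71.3 in MetE14/3 and 330 in WTE14/1), in the direction of the control split. Cyp1b1 and Cyp1a1, both targets of the aryl hydrocarbon receptor, were the 2 lower members: Cyp1b1 read 1272 on array 1, 108 on array 2, 2596 in MetE14/3 and 2474 in WTE14/1 (−3.52), and Cyp1a1 75.6 and 12.1 (−2.63).

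**Figure D3:**
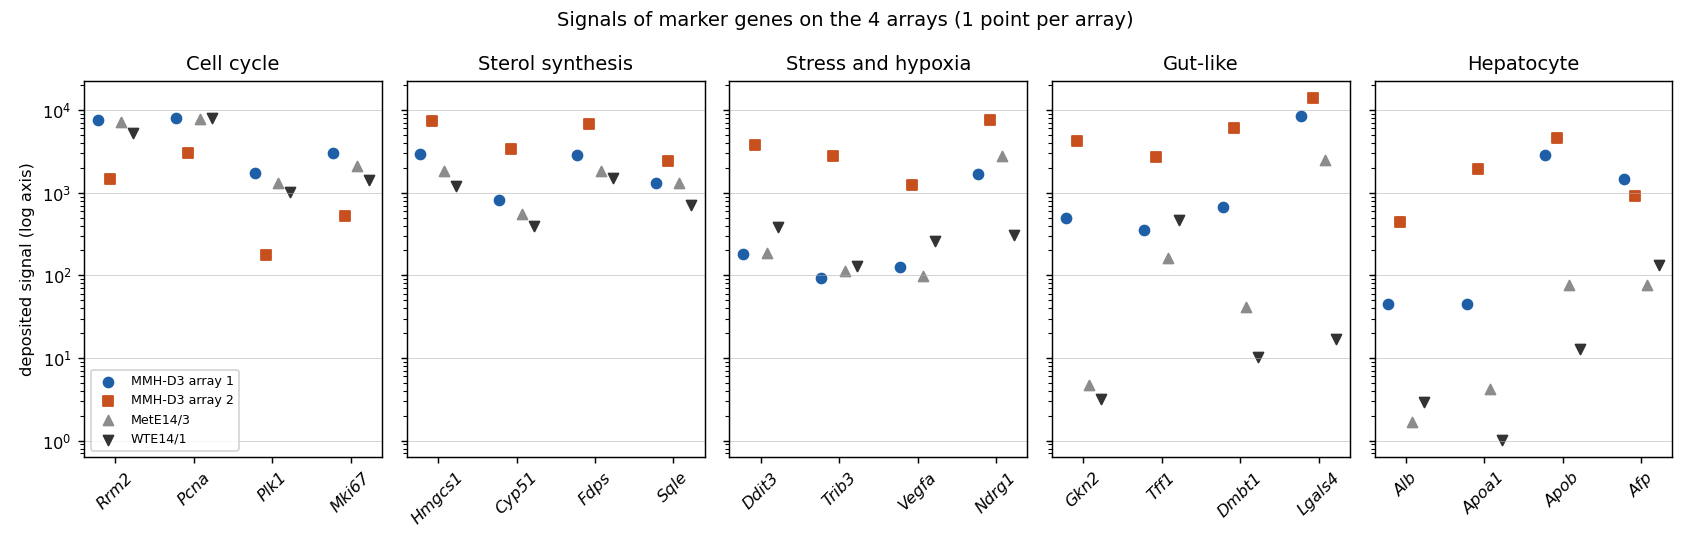
Deposited signals (log axis) of 20 genes on the 4 arrays, 1 point per array. Array 2 is the lowest point for the cell cycle genes and the highest for the sterol, stress and hypoxia genes; Gkn2, Alb and Apoa1 read under 10 in both RLSC lines.

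Most measured genes of stomach and gut epithelium were higher on array 2. The summed signal of the measured gastric genes was 16220 on array 1, 24704 on array 2, 1650 in MetE14/3 and 1428 in WTE14/1, and that of the intestinal genes 55655, 86008, 25085 and 5469. Of 18 measured gastric genes (35 listed) 12 were above 0 and 6 below, with a median of 0.67 and an RLSC median of −0.56. At least 4-fold higher were 5 and lower 1, where 2.94% and 3.02% of all genes were. Gkn2, gastrokine 2 of surface mucous cells, read 490 on array 1, 4206 on array 2, 4.70 in MetE14/3 and 3.21 in WTE14/1 (3.09). Tff1, the mucus-linked trefoil peptide, read 356 on array 1, 2745 on array 2, 161 in MetE14/3 and 465 in WTE14/1 (2.89). Gkn2 was thus at background in both RLSC lines, whereas Tff1 on array 1 lay between them. Anxa10, an annexin of gastric epithelium, read 799 and 3447 (2.13), and Gkn1 11.3 and 85.1 (2.23). Atp4a, the proton pump of parietal cells, read 1.70 and 40.5 (2.78), and passed the filter only through array 2. Muc1, a membrane mucin, was the lower member (83.4 and 20.9, −2.13), and passed only through array 1.

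Of 32 measured intestinal genes (70 listed) 9 were at least 4-fold higher, against 2.94% of all genes, and none lower. Above 0 were 27, and the median was 0.97. Lypd8 and 2210407C18Rik passed the filter only through array 2, so they had to be higher. The RLSC median was −1.0, opposite in sign, with 11 members at least 4-fold lower in WTE14/1. Dmbt1, a secreted mucosal defence protein, read 674 on array 1, 6087 on array 2, 41.1 in MetE14/3 and 10.4 in WTE14/1 (3.16). Fabp2, the fatty acid binding protein of enterocytes, read 62.6 on array 1, 827 on array 2, 16.4 in MetE14/3 and 1.71 in WTE14/1 (3.35). Both were highest on array 2 and next on array 1. Lypd8, an antibacterial surface protein of colon, read 0.8 and 84.2 (4.08), 2210407C18Rik 10.1 and 242 (3.85) and Eps8l3, a microvillus protein, 58.8 and 533 (2.79). The 9 brush border genes, grouped after the values were seen, were all above 0 (median 2.06), Vil1 at 203 and 710 (1.65) among them. Cdx2, the master factor of intestine, did not share this: 510 on array 1, 433 on array 2, 370 in MetE14/3 and 245 in WTE14/1 (−0.29). Lgals4, a galectin of gut epithelium, was bright on both MMH-D3 arrays (8578 and 13971, 0.61), so the gut-like pattern was present on array 1 as well.

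Epithelial junction genes had a median of 0.75, with 32 of 41 members above 0. At least 4-fold higher were 2, against 2.94% of all genes. The RLSC median of the list was −0.68. Dsc2, a desmosomal cadherin, read 66.8 and 1166 (3.79), Gjb1, connexin 32 of hepatocytes, 241 and 1371 (2.40), and Cdh1, E-cadherin, 3816 and 7390 (1.02). Mesenchymal genes had a median of −0.27 over 31 members. Snai2, the repressor Slug, was 4-fold higher (183 and 1527, 2.92), Cnn2, a calponin, 4-fold lower (3718 and 519, −2.75), and Vim, vimentin, was bright on every array (13957 and 14172, −0.20). Matrix genes had a median of −0.05 over 31, with Col4a5 higher (46.4 and 269, 2.09) and Thbs1 lower (49.3 and 11.9, −2.13, with −0.46 from its other probe set). Of 30 TGF-beta and YAP targets 2 were at least 4-fold lower, against 3.02% of all genes (median −0.20): Ltbp1 (89.1 and 14.0, −2.68) and Ankrd1 (2966 and 562, −2.29). The YAP target Ccn2 read 4314 and 5379 (0.43). The signs of the matrix and TGF-beta medians were not kept under every alternative processing.

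Markers of other liver cells were dim for blood and endothelium and included bright genes for the other lists. Of 28 blood and macrophage genes 10 passed the filter, none was 4-fold apart (median 0.35), and the brightest read 37.3 on array 1 and 67.0 on array 2, with sums of 190 and 324. Of 22 endothelial genes 10 passed, none was 4-fold apart (median 0.45, a sign not kept with the 60th percentile filter), with a highest signal of 118 and 145. The stellate and mesothelial list (14 measured, median 0.46) had 1 member 4-fold higher, Gpm6a (8.80 and 207, 3.77). Gpm6a passed the filter only through array 2, so it had to be higher. The sum of the list was 8876 and 14476. Most of that sum was Msln, mesothelin, at 6073 on array 1, 11154 on array 2, 2963 in MetE14/3 and 2107 in WTE14/1 (0.89); Wt1, a factor of mesothelium, read 192 and 398 (0.87), with 9.2 and 14.8 in the RLSC lines. The 17 cholangiocyte and progenitor genes had a median of 0.07, a sign not kept without a filter, and none 4-fold apart. They read bright on both arrays, with sums of 28146 and 30255, among them Cd24a, a surface protein of progenitors (6670 and 4880, −0.40), and Sox4, a biliary and progenitor factor (3752 and 5133, 0.56). The part of other cell types in the differences was not tested.

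The remaining lists had 3 or fewer members at least 4-fold apart. Interferon genes had a median of 0.53 over 23 members, with Irf7 higher (13.3 and 147, 2.78). Chemokine and inflammation genes had one of 0.19 over 27, with Ccl20, a chemokine of mucosal epithelium, higher (47.3 and 853, 3.75) and Saa2 lower (25.8 and 3.98, −2.26; it passed only through array 1). The Wnt list (29 measured, median −0.04) had Wnt7a and Dkk2 lower, both dim: Wnt7a read 24.0 and 1.69 (−2.64, 1 of 2 probe sets below 0) and Dkk2 14.6 and 1.09 (−2.16). Among 12 imprinted genes (median −0.23) Peg3 (244 and 35.5, −2.83) and Ndn (726 and 166, −2.16) were lower and Grb10 was higher (59.6 and 344, 2.13, 2 of 3 probe sets). In the RLSC pair Grb10 differed by 5.78, in the direction of the control split, and Ndn by 3.56, opposite in sign to its MMH-D3 difference. Peg3 read 5.90 in MetE14/3 and 2265 in WTE14/1, and the RLSC median of this list was 1.13.

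**Figure D4:**
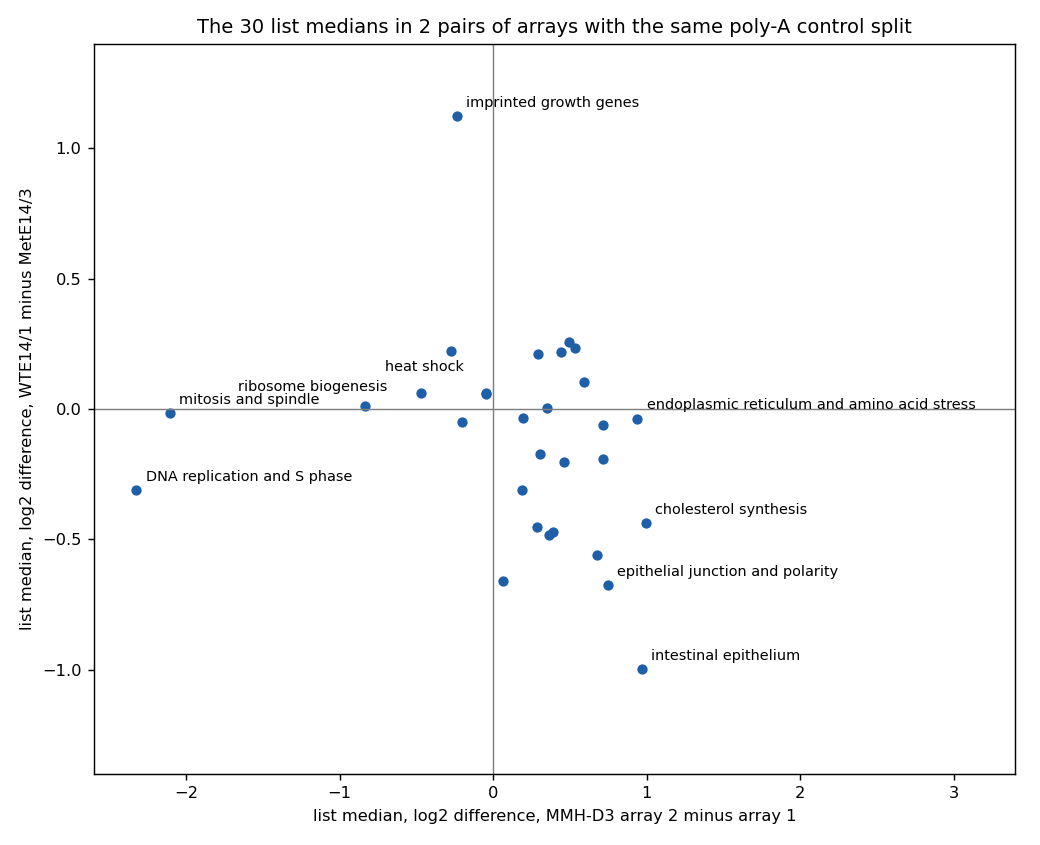
Median difference of each of the 30 lists between the MMH-D3 arrays (horizontal, array 2 minus array 1) and between the RLSC lines (vertical, WTE14/1 minus MetE14/3), both on the log2 scale. The mitosis list lies at −2.10 and −0.01, and the intestinal list at 0.97 and −1.0.

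Among all genes, the 12 largest differences in each direction were taken from genes that read at least 200 on one MMH-D3 array. Ces2a, a carboxylesterase of liver and gut, read 3.10 on array 1, 1019 on array 2, 0.600 in MetE14/3 and 2.17 in WTE14/1 (6.99). The gene was at the bottom of the scale on 3 arrays, so its fold depends on the added 4. Next upward came Sult1a1, Fam83e (3.00 and 289, 5.18), Sult1d1, a catecholamine sulfotransferase (28.2 and 1379, 5.12), Apoa1, Nupr1, Ms4a8a (15.2 and 680, 4.87) and Hsd17b2, which inactivates sex steroids (35.7 and 1348, 4.78). Cym, the stomach protease chymosin, read 7.40 and 338 (4.66). Ces2a, Fam83e and Sult1d1, like Sult1a1 and Apoa1, passed the filter only through array 2. Ces2a, Fam83e and Sult1a1 therefore had to be higher, while for Sult1d1 and Apoa1 the filter favoured a higher value without forcing it. Downward, Abcb1b, a multidrug efflux pump, led: 295 on array 1, 2.50 on array 2, 496 in MetE14/3 and 264 in WTE14/1 (−5.64; its other probe set gave −1.46). Inhbb, an activin subunit, read 279 and 17.9 (−3.88), Tubb6, a beta-tubulin, 4419 and 290 (−3.85), Plscr2 394 and 28.3 (−3.76), Lrr1 454 and 32.9 (−3.74) and Prss23 340 and 25.5 (−3.71). Plscr2 also differed by −2.57 in the RLSC pair (783.5 in MetE14/3 and 139 in WTE14/1), in the direction of the control split. The probe set with the smallest difference gave −1.71 for Inhbb, −0.20 for Tubb6, −1.98 for Lrr1 and −0.91 for Prss23. The remainder of the 12 lowest were Shcbp1, Fbxo5 and the replication genes Uhrf1, Cdc6, Exo1 and Ccne2.

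The share of genes far apart differed with brightness. In 4 equal groups of genes by mean signal, the share at least 4-fold apart was 8.57% in the dimmest, then 7.24%, 5.14% and 2.89% in the brightest. For 147 of the 371 higher genes array 1 was below the filter level, and for 111 of the 380 lower ones array 2 was; 96 and 112 read at least 100 on both arrays. Where a gene had several probe sets past the filter, all had the same sign for 103 of 123 higher genes (83.7%) and 156 of 179 lower ones (87.2%), against 3538 of 6050 genes overall (58.5%). Just inside the 4-fold mark lay Ube2c at −2.01 (4641 and 1077) and Cntn2 at 2.00 (2.40 and 26.1), and just outside it Rnf26 at −2.0 (2389 and 560) and Kif9 at 1.99 (4.70 and 38.3). With the values as deposited, the median of all genes was 0.17 and 64.8% of the genes at least 4-fold apart were higher on array 2, compared with 49.4% after quantile normalization.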

How the data were processed

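Signals came from 4 Affymetrix Mouse430_2 arrays, 1 per sample, each made from 5 µg of total RNA and 15 µg of fragmented cRNA, per the labels. The authors deposited 1 intensity (signal) per probe set, made with GCOS per the submitters' processing notes; the version of GCOS is not given in the sources used here. The mean signal after trimming 2% at each end was 200.001 on all 4 arrays, and the medians were 16.9 and 23.1 on MMH-D3 arrays 1 and 2. Single arrays limit the precision. Of 45037 probe sets without controls, 34945 named 1 gene, 932 several and 9160 none; 34754 matched RefSeq's gene table by Entrez ID, and no symbol changed. Values were taken as log2(signal + 4), quantile normalized over the 4 arrays, and reduced to the probe set with the highest mean per gene; genes whose mean lay under the 40th percentile, near a signal of 11.7, were dropped. Of 1145 genes on 30 lists, 1065 had a probe set and 823 passed the filter. The members and lists were chosen with earlier results of these data known.

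Named genes were the 12 largest in each direction reading at least 200 on one MMH-D3 array with probe sets of 1 sign, up to 5 members per list at least 4-fold apart in its main direction and 3 in the other (where it had none, the 2 brightest), and 19 fixed genes, of which 18 passed the filter. Genes named beyond this, the splits of lists by role and the motifs were chosen after values were seen. Beside the 6 motifs whose shares are given with the results, 7 were searched: the E-box CACGTG (11.4% of all measured genes with a window), the cAMP element TGACGTCA (3.46%), the C/EBP-ATF forms TGATGCAA (0.746%) and ATTGCATCA (0.137%), the sterol-element forms CACCCNAC (6.74%) and TCACCCCAC (0.717%), and a longer CCAAT box, TGATTGG (11.7%). The E-box contains the HIF core, and the longer forms contain or lie within a shorter one. Matches of TGATGNAA and ACGTG overlapped in 2 of 13040 windows, and those of TTTGAA and ACGTG in 5. The scripts (Python 3.11.15, numpy 2.4.6, pandas 2.3.3, scipy 1.17.1) were tested on simulated data. Alternatives were another pseudocount, scaling, filter, probe set rule and fold.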

Additional observations from a re-analysis of the deposited data

How the results depend on the processing

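With 1 array a side no test was made, and leaving out either MMH-D3 array leaves no comparison. No paired analysis was possible because the labels' replicate numbers name single arrays of 1 group. The counts of genes at least 4-fold apart, 371 higher and 380 lower on array 2, became 216 and 222 with a pseudocount of 16, 110 and 102 with 64, and 96 and 112 among genes reading at least 100 on both arrays. The 60th percentile filter gave 181 higher. At 2-fold the counts were 1696 and 1612, and at 8-fold 95 and 56. As deposited, 649 of the 751 genes remained among 816. The replication median of −2.32 became −1.87 with a pseudocount of 64. The mitosis median of −2.10 became −1.78 with that pseudocount and −2.38 with median centring, which also gave −1.23 for ribosome biogenesis and 0.040 for growth factor response and Myc. Median centring placed the median of all genes at −0.15, and 42.3% of its calls were higher. Of 30 lists, 22 kept the sign of their median in all alternatives run. The 8 that did not were TGF-beta and YAP targets, Wnt, chemokines, cholangiocyte, endothelial, hepatocyte metabolism, imprinted and matrix genes. Wnt7a reversed, to 0.42 with a pseudocount of 1 and to 0.38 with a filter on the MMH-D3 mean, an alternative chosen after seeing the data. Among alternatives for single named genes, 1382 values stayed on their side of 4-fold in the same direction and 72 did not pass it. For 147 of the 371 higher genes, array 1 lay below the filter level, so their fold depends on the pseudocount.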

Other observations

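Some gene families were tallied after their values were seen. If their members passed the filter only through array 2 was not tallied. Nucleoporins, which build the nuclear pore, were below 0 in 18 of 18 measured genes (median −1.17), with an RLSC median of 0.07. The augmin subunits, which branch spindle microtubules, were below 0 in 8 of 8 (median −1.65), and the RNA exosome in 9 of 9 (median −0.96). Tubulins were below 0 in 10 of 12 (median −1.32). Of 32 cytochrome P450 genes 9 were at least 4-fold higher and 2 lower on array 2 (median 1.06), where 2.94% and 3.02% of all genes were. Some of the 32 are list members given above, among them Cyp51 of the 9 and Cyp1b1 and Cyp1a1, the 2 lower. All 3 measured UDP-glucuronosyltransferases of family 2b were at least 4-fold higher, with an RLSC median of 1.09 in the direction of the control split. Host genes of small nucleolar RNAs had a median of 1.36 over 14 genes, but one of 1.20 in the RLSC pair, in the same direction as the control split. Zfas1 among them read 378 on array 1, 3563 on array 2, 550 in MetE14/3 and 2470 in WTE14/1.

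Close relatives sometimes lay on opposite sides. Abcb1a, one mouse form of the efflux pump P-glycoprotein, read 153 on array 1 and 1597 on array 2 (3.20), while Abcb1b, the other form, read 295 and 2.50 (−5.64). In the RLSC lines Abcb1a read 77.1 and 21.4 and Abcb1b 496 and 264. Smpdl3a read 29.2 and 361 (3.10) and Smpdl3b 692 and 111 (−2.68). Probes of such close paralogues can share target sequence, which was not tested. Txnip, an inhibitor of thioredoxin and of glucose uptake, read 415 on array 1, 4815 on array 2, 399 in MetE14/3 and 385 in WTE14/1 (3.49), and Socs2, a feedback inhibitor of growth hormone signalling, 39.3 and 667 (3.62).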
